A study of Mus musculus with 12 samples.

Results

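The genes described here encode the nuclear subunits of oxidative phosphorylation, the respiratory chain and the ATP synthase, grouped by protein complex. Membership was set by symbol, but the set was chosen with earlier results of these data known. Names starting with Ndufa, Ndufb, Ndufc, Ndufs or Ndufv were taken for complex I (Ndufaf assembly factors left out). Sdha, Sdhb, Sdhc and Sdhd were taken for complex II, and names starting with Uqcr for complex III, Cox4 to Cox8 for complex IV and Atp5 for complex V. This gave 82 genes of the 19752 with a symbol of their own, of which complex I held 36, complex II 4, complex III 8, complex IV 17 and complex V 17. For the 17 of these genes with several transcript clusters (sets of probes for 1 gene), the cluster with the highest mean over all arrays was used.

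Complexes I and II pass electrons from NADH and succinate to ubiquinone, complex III passes them to cytochrome c, and complex IV passes them to oxygen. Complexes I, III and IV pump protons out of the mitochondrial matrix, and complex V lets them flow back and makes ATP. Skeletal muscle is rich in these complexes, and for several complex IV subunits it uses muscle isoforms in place of the forms found in most tissues. Mitochondrial DNA encodes part of each complex other than complex II, and the subunits it encodes were not analysed here.

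RNA of whole tibialis anterior (TA) muscle was measured on 12 Affymetrix arrays in 4 groups of 3. All mice were C57BL/6 and 8 weeks old, cardiotoxin, a snake toxin after which damaged fibres regenerate, was injected into the TA muscle of each on day 0, and all received diphtheria toxin every other day. Muscle was taken at day 4 from Foxp3-DTR- mice given AREG or PBS, and at day 8 from Foxp3-DTR+ mice given AREG or PBS, of which the second kind carry the diphtheria toxin receptor in Foxp3-expressing regulatory T (Treg) cells. AREG is amphiregulin, a ligand of the epidermal growth factor receptor, and PBS is phosphate-buffered saline, its vehicle; each was given into the muscle on day 0 and into the abdomen every other day. Day and genotype changed together and cannot be told apart. The labels do not say whether replicates were separate mice, so p-values measure the spread between these samples.

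The median intensity of the arrays lay between 134 and 143. The tissue carried its defining markers: the mean log2 intensity of 20 mature fibre genes, among them the muscle creatine kinase Ckm and the skeletal actin Acta1, lay between 12.83 and 13.14 on every array. Of the 82 subunit genes, 78 lay at or above the median level of all genes. The other 4 were Ndufa4l2, Cox6b2, Cox7b2 and Cox8c, isoforms known from other tissues or from hypoxia. Foxp3 lay between 6.49 and 6.75 on all arrays and differed by -0.02 ± 0.11 between the PBS groups of day 8 and day 4 (adjusted p = 0.955), so it gave no check of Treg depletion. Levels of different genes are not compared, since each probe set has its own brightness.

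The comparison of AREG with PBS at day 4 asks how the growth factor changes the injured muscle while Treg cells are present. In AREG muscle 80 of the 82 subunit genes had a higher mean than in PBS muscle. The exceptions were Cox6a1 and Cox8a, the widely expressed forms of complex IV subunits whose muscle forms, Cox6a2 and Cox8b, were on the higher side. The differences were small, with a median of 0.21 on the log2 scale (1.16-fold), against a median of 0.04 over all genes. A gene was called when its adjusted p in limma, over all genes, was under 0.05: this held for 0 of the 82, against 2.9% of all genes (0.79% higher and 2.11% lower). Same-numbered arrays of day 4 deviated together (r = 0.56, 0.20 and 0.51), although no label says that the number pairs them. In the limma fit blocked by that number, a pairing read from these same arrays, 2 members passed, against 4.63% of all genes. They were Cox6a1 (lower, adjusted p = 0.0254) and Cox7a1 (higher, adjusted p = 0.0443). At an unadjusted p under 0.05 there were 20 of 82, against 17% of all genes.

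The mean log2 intensity of the 82 genes was 10.68, 10.76 and 10.77 in the AREG arrays of day 4, against 10.56, 10.46 and 10.57 in the PBS arrays. Each AREG array lay above each PBS array, and PBS replicate 2 was the lowest of all 12 arrays. By gene, the 2 groups did not overlap for 43 members: the AREG arrays lay higher for 41, against 10.2% of all genes, and lower for 2, against 12% of all genes. Of all genes 59.1% had a higher mean with AREG, and of those at or above the median level 52.6% did. This share rested on AREG replicate 1, whose log2 intensities had the smallest interquartile range (2.19, against 2.37 to 2.72 on the other arrays): without it 46.4% of all genes were higher with a median of -0.02, and 77 of the 82 members were. In whole muscle, fewer cells of a type and less RNA per cell cannot be told apart.

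**Figure D1:**
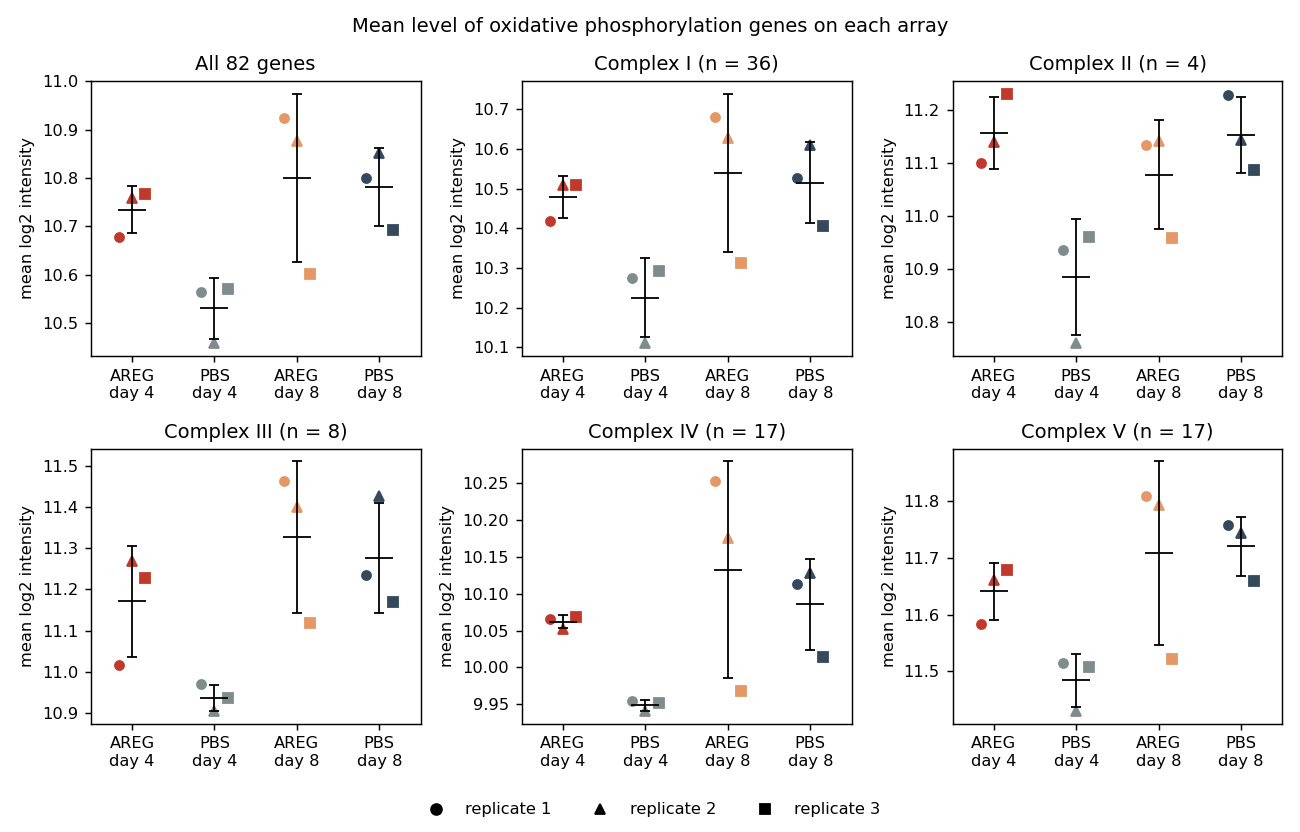
Mean log2 intensity of the subunit genes on each array (vertical axis), for all 82 and for each complex, in the 4 groups; points are arrays, shaped by replicate number, and bars are the group mean ± SD over 3 arrays. At day 4 the 3 AREG arrays lie above the 3 PBS arrays in each panel, while at day 8 the groups overlap and AREG replicate 3 is lowest.

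The 36 genes of complex I, the NADH dehydrogenase, all had a higher mean in AREG muscle at day 4, by 0.08 to 0.60 with a median of 0.26. Of these 23 did not overlap, against 10.2% of all genes, and 11 had an unadjusted p under 0.05, against 17%. Its 3 working parts had differences of like size, with every gene of each on the higher side. The 8 genes of the N module, which takes electrons from NADH, had a median difference of 0.27, the 7 of the Q module, which hands them to ubiquinone, 0.22, and the 19 of the proton-pumping P module 0.26. Ndufs1, the large iron-sulfur subunit of the N module, had log2 intensities of 10.46, 10.91 and 10.87 in AREG muscle, against 10.28, 10.15 and 10.43 in PBS muscle. The AREG arrays were all higher, and the difference of 0.46 ± 0.14 (SE of the fit, as throughout) gave an adjusted p of 0.0974. Ndufv1, which binds NADH and the flavin, read 11.17, 11.05 and 11.27 with AREG, against 10.99, 10.50 and 10.99 with PBS. The groups did not overlap, PBS replicate 2 was the lowest array, and the difference was 0.34 ± 0.17 (adjusted p = 0.334). The largest difference of the complex was that of Ndufb2, a small accessory subunit of the membrane arm, at 0.60 ± 0.28, and the smallest that of Ndufb6, another one, at 0.08 ± 0.15.

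Complex II, succinate dehydrogenase, is also an enzyme of the tricarboxylic acid cycle. Its catalytic flavoprotein Sdha had log2 intensities of 11.96, 12.02 and 12.18 in AREG muscle at day 4, against 11.63, 11.47 and 11.90 in PBS muscle. The iron-sulfur subunit Sdhb read 10.95, 11.07 and 11.21 with AREG, against 10.82, 10.73 and 10.75 with PBS. Neither gene's groups overlapped, and the differences were 0.39 ± 0.15 (adjusted p = 0.188) for Sdha and 0.31 ± 0.13 (adjusted p = 0.214) for Sdhb. The membrane anchor Sdhc differed by 0.30 ± 0.12 without overlap and the other anchor, Sdhd, by 0.09 ± 0.16 with overlap.

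In complex III, the cytochrome c reductase, all 8 genes had a higher mean with AREG at day 4, by 0.12 to 0.31, with 3 not overlapping (10.2% of all genes) and 0 at an unadjusted p under 0.05 (17% of all genes). The largest difference was that of Uqcrfs1, the Rieske iron-sulfur protein, with 9.17, 9.74 and 9.58 in AREG muscle, against 9.22, 9.02 and 9.31 in PBS muscle. AREG replicate 1 lay below PBS replicate 3, so the groups overlapped, and the difference was 0.31 ± 0.17. The smallest was that of Uqcr11, a small accessory subunit, at 0.12 ± 0.33.

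In complex V, the ATP synthase, all 17 genes had a higher mean with AREG at day 4, by 0.02 to 0.40 with a median of 0.15. Of these 7 did not overlap, against 10.2% of all genes, and only 1 of 17 had an unadjusted p under 0.05, a smaller share than the 17% of all genes. That gene was Atp5e, the epsilon subunit of the rotor, with 10.09, 10.28 and 10.08 in AREG muscle, against 9.78, 9.67 and 9.79 in PBS muscle. The groups did not overlap, and the difference was 0.40 ± 0.16 (adjusted p = 0.216). The catalytic core genes differed less: Atp5b, the beta subunit that makes ATP, by 0.09 ± 0.12, and Atp5a1, the alpha subunit beside it, by 0.16 ± 0.12. The smallest difference was that of Atp5g3, a gene of the rotor ring, at 0.02 ± 0.13.

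Complex IV, cytochrome c oxidase, was the complex whose genes ran in both directions at day 4, with 15 of 17 higher and 2 lower, a median of 0.17 and 5 at an unadjusted p under 0.05, against 17% of all genes. Cox5a, a subunit without a muscle form, had 10.80, 10.78 and 10.87 in AREG muscle, against 10.62, 10.43 and 10.67 in PBS muscle, a difference of 0.24 ± 0.12 (adjusted p = 0.328) without overlap. Its range, -0.66 to 0.50, was set by isoforms described next.

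**Figure D2:**
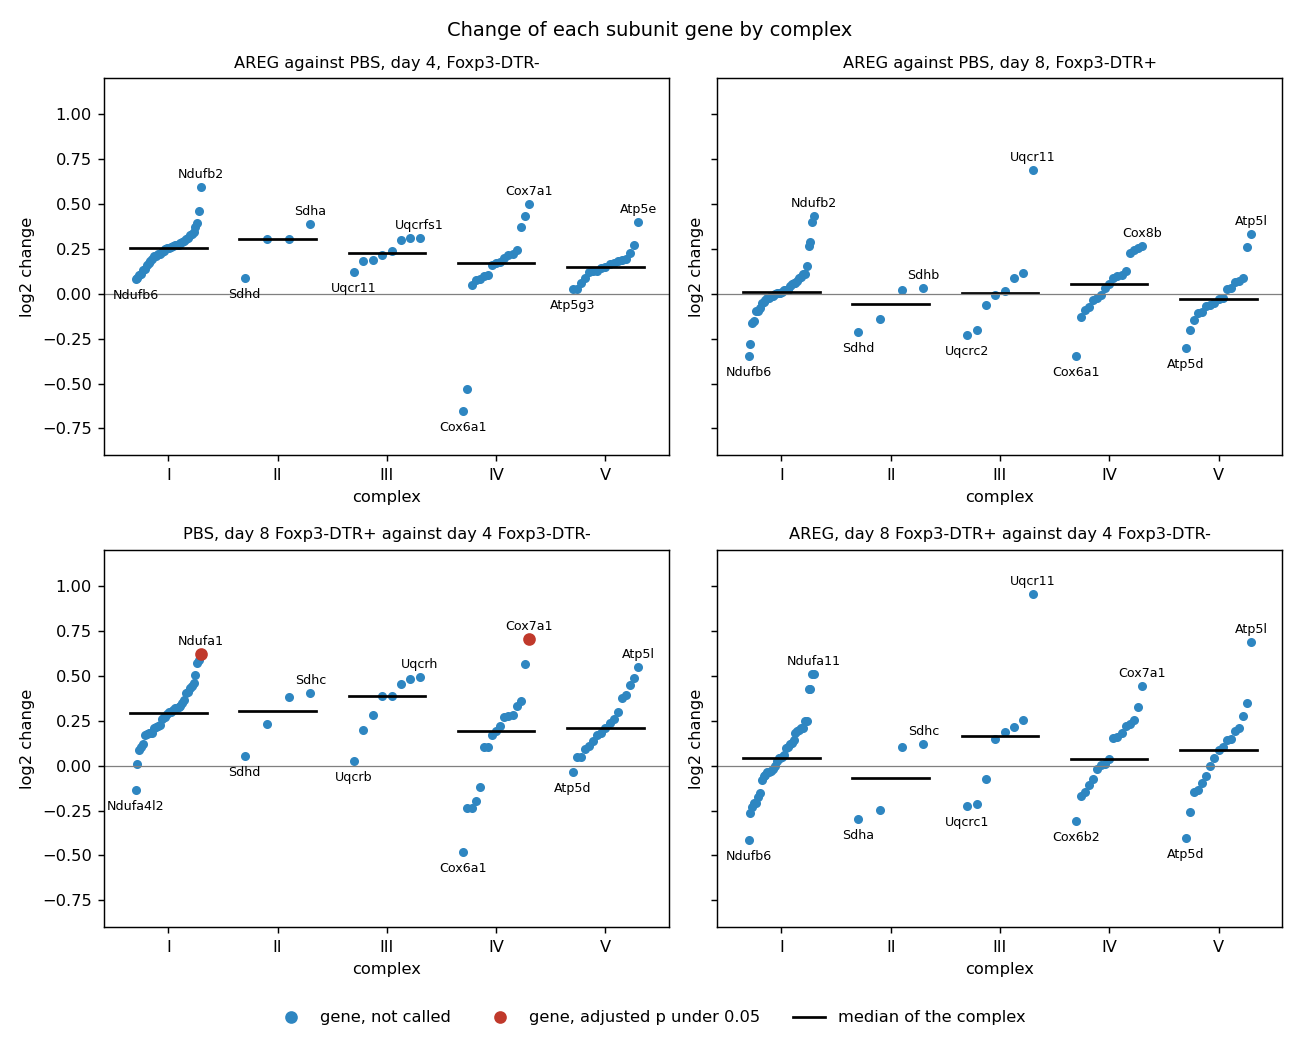
Difference in mean log2 intensity of each subunit gene (points, ordered by size within each complex) in 4 comparisons: AREG minus PBS at day 4 and at day 8, and day 8 minus day 4 with PBS and with AREG; lines are the medians of the complexes, and red points have an adjusted p under 0.05. At day 4, 80 of 82 points lie above 0 and the 2 below are Cox6a1 and Cox8a, at day 8 the points lie on both sides of 0, and the red points are Ndufa1 and Cox7a1 between the PBS groups.

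Several complex IV subunits come as pairs of isoforms: Cox6a2, Cox7a1 and Cox8b are the forms of heart and skeletal muscle, and Cox6a1, Cox7a2 and Cox8a the forms of most other tissues. In AREG muscle at day 4 the muscle form was on the higher side in each pair and 2 of the 3 widespread forms on the lower side, with 0 of these called. Promoters are shown because the Cox6a and Cox8 pairs hold the members with differences of opposite sign, and the Cox7a pair is shown beside them. Cox6a2 had no promoter entry and is not shown. The 250 bases before the RefSeq start of each gene (GRCm38.p6) follow, 5' to 3' on the gene's strand, for Cox8b (chr7:140900447-140900696, minus), Cox8a (chr19:7217617-7217866, minus), Cox7a1 (chr7:30183921-30184170, plus), Cox7a2 (chr9:79759854-79760103, minus) and Cox6a1 (chr5:115348959-115349208, minus). Capitals mark the searched motifs described after them.
Cox8b: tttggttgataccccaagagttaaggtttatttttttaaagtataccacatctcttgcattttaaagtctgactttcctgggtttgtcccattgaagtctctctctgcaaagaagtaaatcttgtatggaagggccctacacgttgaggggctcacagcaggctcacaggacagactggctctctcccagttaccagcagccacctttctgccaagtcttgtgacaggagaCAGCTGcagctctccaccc
Cox8a: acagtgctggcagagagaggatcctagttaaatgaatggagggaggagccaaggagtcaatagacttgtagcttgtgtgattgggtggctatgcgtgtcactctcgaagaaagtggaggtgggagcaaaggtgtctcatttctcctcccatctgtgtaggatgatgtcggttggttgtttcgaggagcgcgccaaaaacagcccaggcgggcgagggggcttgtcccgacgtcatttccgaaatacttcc
Cox7a1: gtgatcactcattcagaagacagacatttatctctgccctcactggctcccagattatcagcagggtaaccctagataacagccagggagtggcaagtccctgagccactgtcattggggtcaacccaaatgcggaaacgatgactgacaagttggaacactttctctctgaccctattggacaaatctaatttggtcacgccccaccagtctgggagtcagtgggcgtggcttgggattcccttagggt
Cox7a2: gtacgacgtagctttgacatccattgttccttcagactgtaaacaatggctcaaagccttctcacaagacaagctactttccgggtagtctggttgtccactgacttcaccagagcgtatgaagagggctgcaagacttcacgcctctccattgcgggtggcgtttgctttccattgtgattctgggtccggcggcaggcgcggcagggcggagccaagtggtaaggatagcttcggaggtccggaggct
Cox6a1: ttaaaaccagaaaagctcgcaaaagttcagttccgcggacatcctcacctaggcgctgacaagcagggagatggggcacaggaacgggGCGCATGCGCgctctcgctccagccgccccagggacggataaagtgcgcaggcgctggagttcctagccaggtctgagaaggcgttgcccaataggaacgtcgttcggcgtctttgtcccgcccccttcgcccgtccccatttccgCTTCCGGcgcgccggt

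The motifs searched, on both strands, were those of NRF1 (its full palindrome, and the shorter GCGCATG, which lies within the full one), of ETS factors such as GABPA (CCGGAAG), of the estrogen-related receptors (CAAGGTCA), of YY1 (AAGATGGC), of MEF2 and the E-box bound by myogenic factors (CAGCTG). Of the 5 promoters shown, Cox8b held an E-box that starts 19 bases before the gene. Cox6a1 held the long NRF1 motif at 162 bases before its start and an ETS motif, here as its reverse complement, at 16 bases. These letters were not in the windows of Cox8a, Cox7a1 and Cox7a2. Over the 67 subunit genes with an entry, of 82, the long NRF1 motif was in 4 (5.97%, against 0.877% of 27025 genes), the short one in 10 (14.9%, against 3.68%), the ETS motif in 12 (17.9%, against 7.83%) and the estrogen-related receptor motif in 3 (4.48%, against 1.51%). The E-box was in 6 (8.96%, against 14.7%), and the MEF2 and YY1 motifs were in 1 each (1.49%, against 3.70% and 1.83%). The median GC content of these windows was 56.4% in the subunit genes, against 52% in all genes; its part in the counts was not tested.

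Cox6a1 had log2 intensities of 8.58, 8.90 and 8.62 in AREG muscle at day 4, against 9.37, 9.56 and 9.14 in PBS muscle. All 3 AREG arrays were lower, with a difference of -0.66 ± 0.19 (1.57-fold lower, adjusted p = 0.0711). Its muscle partner Cox6a2 read 12.25, 11.82 and 12.23 with AREG, against 11.36, 11.58 and 12.06 with PBS, a difference of 0.43 ± 0.17 (adjusted p = 0.205) with overlap through PBS replicate 3. Cox8a read 9.62, 9.72 and 9.73 with AREG, against 10.10, 10.46 and 10.10 with PBS. It was lower on all AREG arrays, with a difference of -0.53 ± 0.16 (adjusted p = 0.085). Its muscle partner Cox8b read 12.96, 12.78 and 12.81 with AREG, against 12.53, 12.38 and 12.53 with PBS, higher on all AREG arrays by 0.37 ± 0.12 (adjusted p = 0.102). Cox7a1, the muscle form of another small subunit, read 12.21, 12.26 and 12.31 with AREG, against 11.72, 11.64 and 11.91 with PBS. The AREG arrays were all higher, by 0.50 ± 0.16 (adjusted p = 0.1). The widespread partner Cox7a2 did not go the way of Cox6a1 and Cox8a: it differed by 0.17 ± 0.17 (adjusted p = 0.731) with overlap.

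With the replicate block at day 4, Cox6a1 fell (-0.66 ± 0.13, adjusted p = 0.0254) and Cox7a1 rose (0.50 ± 0.12, adjusted p = 0.0443). With only the day 4 arrays fitted 3 members were called (4.75% of all genes), with quantile normalisation repeated 2 (4.44%) and with array weights 50 (26.9%). The split of 80 higher and 2 lower was the same after centring, repeated quantile normalisation and a pseudocount; it was 76 and 6 with array weights, and 77 to 80 were higher when single arrays were left out, with Cox6a1 and Cox8a lower each time. Members were called in 2 of those fits, 2 without AREG replicate 1 of day 8 and 3 without AREG replicate 3 of day 8. Over the fits with single arrays left out, 9 to 1336 of all genes were called, against 573 in the reported fit.

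The balance of each pair was then followed as the log2 ratio of muscle form to widespread form within an array, of which only differences between groups are read. For Cox6a2 over Cox6a1 the ratio was 3.67, 2.93 and 3.60 in AREG muscle at day 4, against 1.99, 2.02 and 2.92 in PBS muscle. At day 8 it was 3.39, 3.72 and 4.31 in AREG muscle, against 3.49, 3.19 and 3.38 in PBS muscle. The groups of day 4 were only just apart, those of day 8 overlapped, and the mean difference within days was 0.77. For Cox8b over Cox8a the ratio was 3.34, 3.06 and 3.08 in AREG muscle at day 4, against 2.42, 1.92 and 2.43 in PBS muscle. At day 8 it was 2.88, 3.28 and 3.42 in AREG muscle, against 2.77, 3.26 and 2.54 in PBS muscle. The day 4 groups were apart, the day 8 groups were not, and the mean difference was 0.62. For Cox7a1 over Cox7a2 the mean difference between AREG and PBS was 0.26, and between day 8 and day 4 it was 0.36.

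Each ratio was tested by an exact two-sided permutation of the labels within the other factor, with 400 arrangements and a smallest possible p of 0.005, and adjusted over 14 tests. None passed. For AREG against PBS the exact permutation p was 0.015 for Cox6a2 over Cox6a1, 0.015 for Cox7a1 over Cox7a2 and 0.01 for Cox8b over Cox8a, each with an adjusted p of 0.0525. For day 8 against day 4 it was 0.025 (adjusted p = 0.0583) for the Cox6a pair, 0.005, the smallest it can be, for the Cox7a pair (adjusted p = 0.0525) and 0.12 (adjusted p = 0.187) for the Cox8 pair.

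The other 4 pairs did not pass either. Atp5g1 and Atp5g3 encode the same ring subunit of the ATP synthase, and their ratio was 0.18 higher with AREG (exact permutation p = 0.025, adjusted p = 0.0583). Cox4i2 over Cox4i1, the lung and hypoxia form over the usual form, differed by 0.05 between AREG and PBS, and Ndufa4l2 over Ndufa4, of which the first is induced by hypoxia, by -0.03. Ndufa4 stands here with complex I by its name, although it is now counted as a subunit of complex IV. Cox6b2 over Cox6b1, the testis form over the usual form, was lower at day 8 than at day 4 (difference -0.57, exact permutation p = 0.035, adjusted p = 0.07), with the first of them below the median level of all genes.

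**Figure D3:**
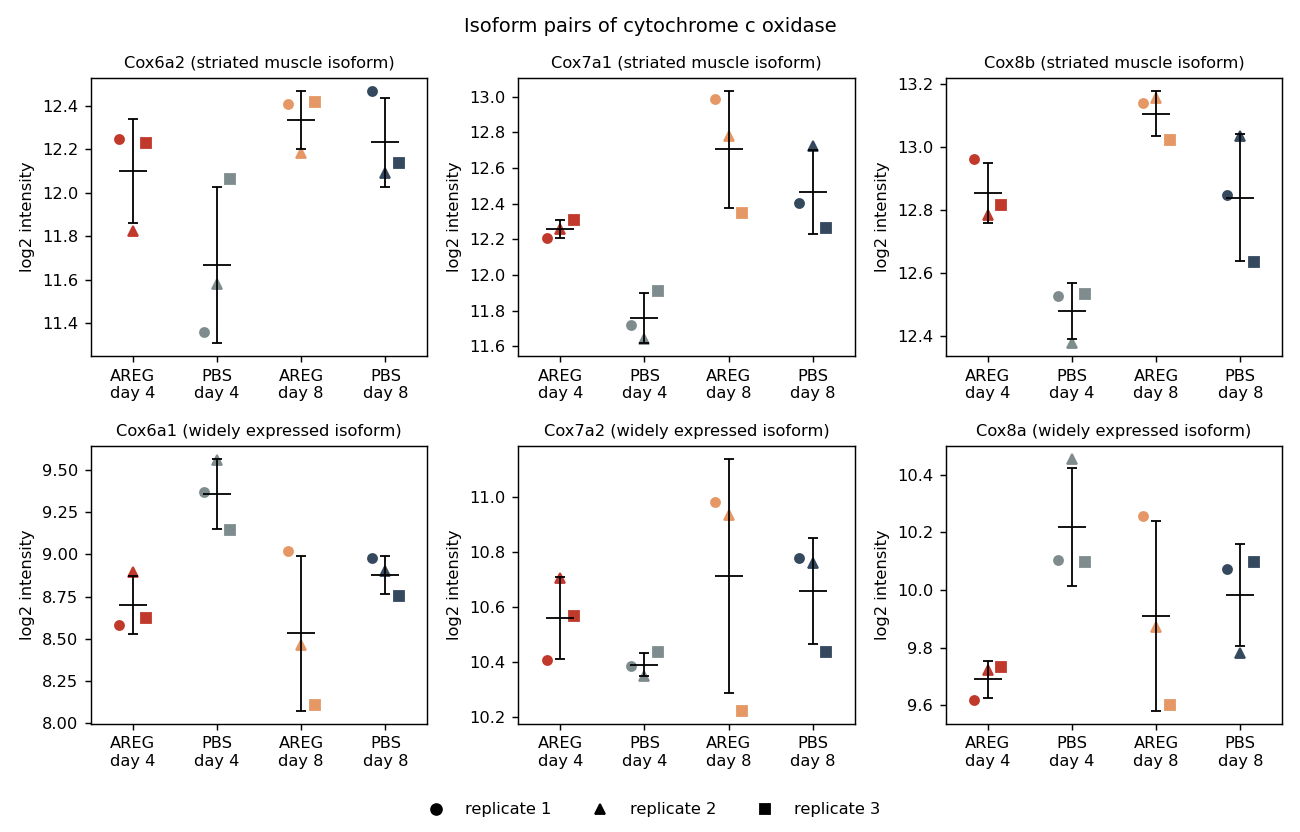
Log2 intensity of the muscle forms (upper row) and widespread forms (lower row) of 3 complex IV subunits on each array of the 4 groups; points are arrays, shaped by replicate number, and bars are the group mean ± SD over 3 arrays. At day 4 the AREG arrays lie above the PBS arrays for Cox7a1 and Cox8b and below them for Cox6a1 and Cox8a, while Cox6a2 and Cox7a2 overlap, and at day 8 the AREG and PBS arrays overlap for all 6 genes.

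At day 8, in Foxp3-DTR+ mice, the subunit genes of AREG and PBS muscle did not differ in a common direction. With AREG 45 of the 82 had a higher mean and 37 a lower one, with a median difference of 0.01, the same as the 0.01 over all genes. No member was called, against 0.00506% of all genes, and 3 had an unadjusted p under 0.05, against 7.62%. The AREG arrays lay above the PBS arrays without overlap for 0 members, against 7.06% of all genes, and below for 2, against 7.14%. The split of higher and lower depended on the scaling, with 57 higher and 25 lower after each array was centred on its median, which left 63.0% of all genes higher. Array weights called 6 members, against 6.03% of all genes.

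The 2 genes without overlap were Ndufb6 and Uqcrc2. Ndufb6 had log2 intensities of 11.40, 11.48 and 10.99 in AREG muscle, against 11.70, 11.54 and 11.66 in PBS muscle, a difference of -0.35 ± 0.15 (adjusted p = 0.644), the lowest of all 82. Uqcrc2, a core subunit of complex III, read 12.05, 12.07 and 11.84 with AREG, against 12.32, 12.11 and 12.23 with PBS, a difference of -0.23 ± 0.11 (adjusted p = 0.663). Atp5d, the delta subunit of the rotor of complex V, had a difference of -0.30 ± 0.13 and also missed the threshold. On the higher side, Uqcr11 read 11.95, 11.88 and 11.42 with AREG, against 10.50, 11.90 and 10.79 with PBS. PBS replicate 2 lay among the AREG arrays, and the difference was 0.69 ± 0.33 (adjusted p = 0.657). Cox8b, the muscle form of complex IV, had 13.14, 13.15 and 13.02 with AREG, against 12.85, 13.03 and 12.63 with PBS, a difference of 0.27 ± 0.12 (adjusted p = 0.647).

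The complexes differed little at day 8. The median difference was 0.01 over complex I (22 of 36 higher), -0.06 over complex II (2 of 4 higher), 0.00 over complex III (4 of 8 higher), 0.05 over complex IV (10 of 17 higher) and -0.03 over complex V (7 of 17 higher). Ndufs1 differed by -0.15 ± 0.14, Sdha by -0.14 ± 0.15, Uqcrfs1 by 0.12 ± 0.17, Cox5a by -0.00 ± 0.12 and Atp5b by -0.11 ± 0.12, all with overlap.

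A single array weighed on these values. AREG replicate 3 of day 8 was the lowest of its group for 65 of the 82 genes, with a mean of 10.60, against 10.92 and 10.88 in replicates 1 and 2 of that group; the PBS arrays of day 8 had 10.80, 10.85 and 10.69. The same array had the lowest mean of its group over the 14 macrophage genes (8.04, against 9.19 and 8.80 in the other two) and the 7 fibroblast genes (9.57, against 10.80 and 10.64), while the 20 mature fibre genes did not set it apart (13.05, against 13.04 and 13.07). Without it, 60 of 82 genes were higher with AREG and the median was 0.12. Leaving out PBS replicate 3 of day 8 instead gave 26 higher and a median of -0.05, leaving out AREG replicate 1 gave 28 and -0.06, and leaving out AREG replicate 2 gave 32 and -0.04, so that the split turned round in these 3 cases.

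Taking both days as 1 mean effect of AREG, 72 of the 82 genes were higher and 10 lower, with a median of 0.12, and 58% of all genes were higher. Of the members, the complex IV muscle form Cox8b alone was called, against 3.41% of all genes (0.415% higher and 2.99% lower): it rose by 0.32 ± 0.08 (1.25-fold, adjusted p = 0.0498), higher in the group means of both days. The call stood at the threshold, and it was lost on leaving out any of 11 of the 12 arrays, each but PBS replicate 2 of day 8, with an adjusted p of up to 0.157. Cox6a1 lay just outside, with -0.50 ± 0.13 (adjusted p = 0.0505), and Cox7a1 had 0.37 ± 0.11 (adjusted p = 0.0785). With the replicate block, 4 members were called, against 5.59% of all genes, and with quantile normalisation repeated 2, against 3.62%. The block paired arrays by number on both days, although same-numbered arrays of day 8 did not deviate together (r = -0.20, 0.12 and -0.00). With the block, Cox8b, Cox7a1 and Atp5e rose, and Cox6a1 fell.

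The difference of the AREG effects, day 8 minus day 4, was below 0 for 71 of the 82 genes, with a median of -0.22, against -0.01 over all genes, of which 47.2% were above 0. It was called for 0 members and for 0 genes in all (0%), and 6 members had an unadjusted p under 0.05 in limma, against 5.87% of all genes. The effects of the 2 days are therefore not shown to differ for any subunit gene. The lowest values were those of Ndufv1, at -0.61 ± 0.24, and Ndufs1, at -0.61 ± 0.20 (adjusted p = 0.672). Without AREG replicate 3 of day 8 the median was -0.11 with 65 genes below 0.

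Between the PBS groups, day 8 in Foxp3-DTR+ mice against day 4 in Foxp3-DTR- mice, most subunit genes were higher at the later time. The mean was higher at day 8 for 75 of 82 and lower for 7, with a median of 0.27 (1.21-fold), against -0.04 over all genes, of which 41.3% were higher. Of the members 2 rose and 0 fell, against 2.34% of all genes called (1.19% higher and 1.15% lower), and 35 had an unadjusted p under 0.05, against 13.1%. The groups did not overlap for 51 members, with 48 higher at day 8, against 9.17% of all genes, and 3 lower, against 14.2%. These values share the PBS arrays of day 4 with the AREG comparison of that day, and PBS replicate 2, the lowest array, enters both.

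Cox7a1 rose, with log2 intensities of 12.41, 12.72 and 12.26 in PBS muscle of day 8, against 11.72, 11.64 and 11.91 in PBS muscle of day 4. All arrays of day 8 were higher, by 0.71 ± 0.16 (1.63-fold, adjusted p = 0.0265). Ndufa1, a small membrane-arm subunit of complex I encoded on the X chromosome and needed for assembly of the complex, also rose. It read 9.15, 9.05 and 8.76 at day 8, against 8.42, 8.10 and 8.58 at day 4, higher on all arrays by 0.62 ± 0.15 (1.54-fold, adjusted p = 0.0481). The Cox7a1 call was lost without any of 4 arrays (adjusted p of up to 0.161), replicates 1 and 2 of both PBS groups. The Ndufa1 call was lost without any of 8 (adjusted p of up to 0.316), that is all but replicate 3 of each PBS group and replicates 1 and 3 of AREG day 8. It was also lost with repeated quantile normalisation (0.57, adjusted p = 0.0716), where Ndufc1 was called in its place, and with the pseudocount of 32 (0.58, adjusted p = 0.0617). Same-numbered arrays of these groups did not deviate together (r = -0.12, 0.06 and -0.07).

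All complexes leaned the same way. The median difference between the PBS groups was 0.29 over complex I (35 of 36 higher), 0.31 over complex II (4 of 4), 0.39 over complex III (8 of 8), 0.19 over complex IV (12 of 17) and 0.21 over complex V (16 of 17). The largest in complex V was that of Atp5l, a membrane subunit, with 10.64, 11.11 and 10.61 at day 8, against 10.27, 10.24 and 10.19 at day 4, a difference of 0.55 ± 0.16 (adjusted p = 0.116) without overlap. In complex III, Uqcrh, the hinge protein that helps cytochrome c bind, read 11.76, 11.98 and 11.67 at day 8, against 11.39, 11.34 and 11.19 at day 4, a difference of 0.50 ± 0.16 (adjusted p = 0.139). In complex II the anchor Sdhc differed by 0.41 ± 0.12 and Sdhb by 0.38 ± 0.13, both without overlap. The catalytic genes of complex V differed little here too, Atp5b by 0.05 ± 0.12 and Atp5a1 by 0.11 ± 0.12.

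The 7 genes that were lower at day 8 were Atp5d, Cox6a1, Cox8a and the 4 genes below the median level. Cox6a1 read 8.98, 8.90 and 8.75 in PBS muscle of day 8, against 9.37, 9.56 and 9.14 at day 4, a difference of -0.48 ± 0.19 (adjusted p = 0.267) without overlap. Cox8a read 10.07, 9.78 and 10.10 at day 8, against 10.10, 10.46 and 10.10 at day 4, a difference of -0.24 ± 0.16 (adjusted p = 0.563), with the nearest arrays of the groups almost level. Cox6a2, in contrast, was higher by 0.57 ± 0.17 (adjusted p = 0.129) and Cox8b by 0.36 ± 0.12 (adjusted p = 0.169), both without overlap. The 7 were the same after centring; repeated quantile normalisation left 6, with Atp5d on the higher side.

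Between the AREG groups, day 8 against day 4, the lean was smaller, with 49 of 82 genes higher at day 8 and a median of 0.06, against -0.06 over all genes. No member was called, against 0.719% of all genes (0.527% higher and 0.192% lower), and 8 had an unadjusted p under 0.05, against 10.3%. The groups did not overlap for 4 members that were higher at day 8 (4.2% of all genes) and 6 that were lower (8.97%). Atp5l came closest, with 11.39, 11.23 and 10.76 in AREG muscle of day 8, against 10.28, 10.53 and 10.49 at day 4, higher on all arrays by 0.69 ± 0.16 (adjusted p = 0.0801). Uqcr11 had the largest difference, 0.96 ± 0.33 (adjusted p = 0.289), with overlap. Cox7a1 differed by 0.45 ± 0.16 (adjusted p = 0.301) without overlap. Without AREG replicate 3 of day 8, Atp5l, Cox7a1 and Ndufs5 were called. Over the fits with single arrays left out, 79 to 458 of all genes were called, against 142 in the reported fit. Each AREG group also enters the comparison with PBS of its day.

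Genes that work with the complexes followed in part. Of 13 measured enzymes of the tricarboxylic acid cycle, which supplies the electrons, 13 had a higher mean with AREG at day 4 (median 0.35) with 0 called, and at day 8 there were 2 higher (median -0.11). Of 16 regulators of mitochondrial biogenesis, 1 rose at day 4: Ppargc1a, the coactivator PGC-1alpha, with 10.01, 10.04 and 9.94 in AREG muscle, against 9.17, 9.36 and 9.51 in PBS muscle. All AREG arrays were higher, by 0.65 ± 0.11 (adjusted p = 0.0198). At day 8 Ppargc1a differed by 0.03 ± 0.11, and between the PBS groups it rose by 0.49 ± 0.11 (adjusted p = 0.0353) at day 8. Of 42 measured assembly factors, 34 had a higher mean with AREG at day 4 (median 0.12) and 13 at day 8 (median -0.07), with 0 called at either time.

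Among 13 electron carriers and nucleotide exchangers, 12 had a higher mean with AREG at day 4, with a median of 0.20, and 1 was called. This was Slc25a5, the widespread isoform of the ADP/ATP carrier that exports ATP from mitochondria, with 10.04, 10.66 and 10.32 in AREG muscle, against 11.29, 11.37 and 11.12 in PBS muscle. It fell on all AREG arrays, by 0.92 ± 0.19 on the log2 scale (adjusted p = 0.027). Its heart and muscle isoform Slc25a4 read 12.91, 13.18 and 13.09 with AREG, against 12.77, 12.78 and 12.95 with PBS, a difference of 0.23 ± 0.11 (adjusted p = 0.301). In glycolysis, of the forms of phosphoglycerate mutase, the widespread Pgam1 fell by 0.70 ± 0.18 (adjusted p = 0.0467), and the muscle form Pgam2 differed by 0.31 ± 0.14 (adjusted p = 0.272). Over the 12 measured glycolysis genes the median was 0.10, with 9 higher and 1 called.

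Several marker lists of cell types and fibre states also differed between groups, and their part in the results was not tested. At day 4 all 20 mature fibre genes had a higher mean with AREG (median 0.18, 1 called), with array means of 13.02 to 13.14 in AREG muscle, against 12.83 to 12.96 in PBS muscle. All 9 regenerating fibre genes had a lower mean and 6 fell, with array means of 9.62 to 10.14 with AREG, against 10.51 to 11.17 with PBS. Of 14 macrophage genes 13 had a lower mean and 10 fell, among them Cd68 and Csf1r, with array means of 8.06 to 8.49 with AREG, against 9.04 to 9.43 with PBS. The 8 adipocyte genes were all higher (3 rose), and of the 7 fibroblast genes 6 were lower with 0 called. Of the 11 endothelial genes 9 had a higher mean with AREG (median 0.27, 0 called), with array means of 8.85 to 9.19 with AREG, against 8.63 to 8.93 with PBS. The remaining lists ran in both directions. With AREG 3 of 7 slow fibre genes were higher (median -0.04), as were 3 of 8 neutrophil genes (median -0.04) and 3 of 7 T cell genes (median -0.06), with 0 called. Of 6 brown adipocyte genes 4 were higher (median 0.09, 1 called). The called gene was Ppargc1a, the same as the regulator of mitochondrial biogenesis given above.

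Several of these lists differed between the PBS groups. The array means of the slow fibre, macrophage, neutrophil, endothelial, adipocyte and brown adipocyte lists overlapped. At day 8, 18 of the 20 mature fibre genes had a higher mean than at day 4, with array means of 13.03 to 13.05, against 12.83 to 12.96. All 9 regenerating fibre genes were lower and 6 fell, with array means of 9.35 to 9.55 at day 8, against 10.51 to 11.17 at day 4. Of the T cell genes 5 of 7 rose, and of the 14 macrophage genes 9 were lower with 0 called. Fibroblast genes had array means of 10.70 to 10.98 at day 8, against 11.05 to 11.34 at day 4, with 5 of 7 lower and 0 called. Of the 11 endothelial genes 10 had a higher mean at day 8 (median 0.13, 0 called), with array means of 8.79 to 8.95, against 8.63 to 8.93 at day 4. At day 8 the regenerating fibre genes had array means of 8.53 to 9.38 in AREG muscle, against 9.35 to 9.55 in PBS muscle, all 9 lower with 0 called. Of the 14 macrophage genes 13 had a lower mean with AREG at day 8 (median -0.47), and all 7 fibroblast genes did (median -0.54), with 0 called. AREG replicate 3 was the lowest array of that day for both lists. The subunit genes had no common direction in that comparison. All these lists were read from the same 12 arrays as the subunit genes.

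**Figure D4:**
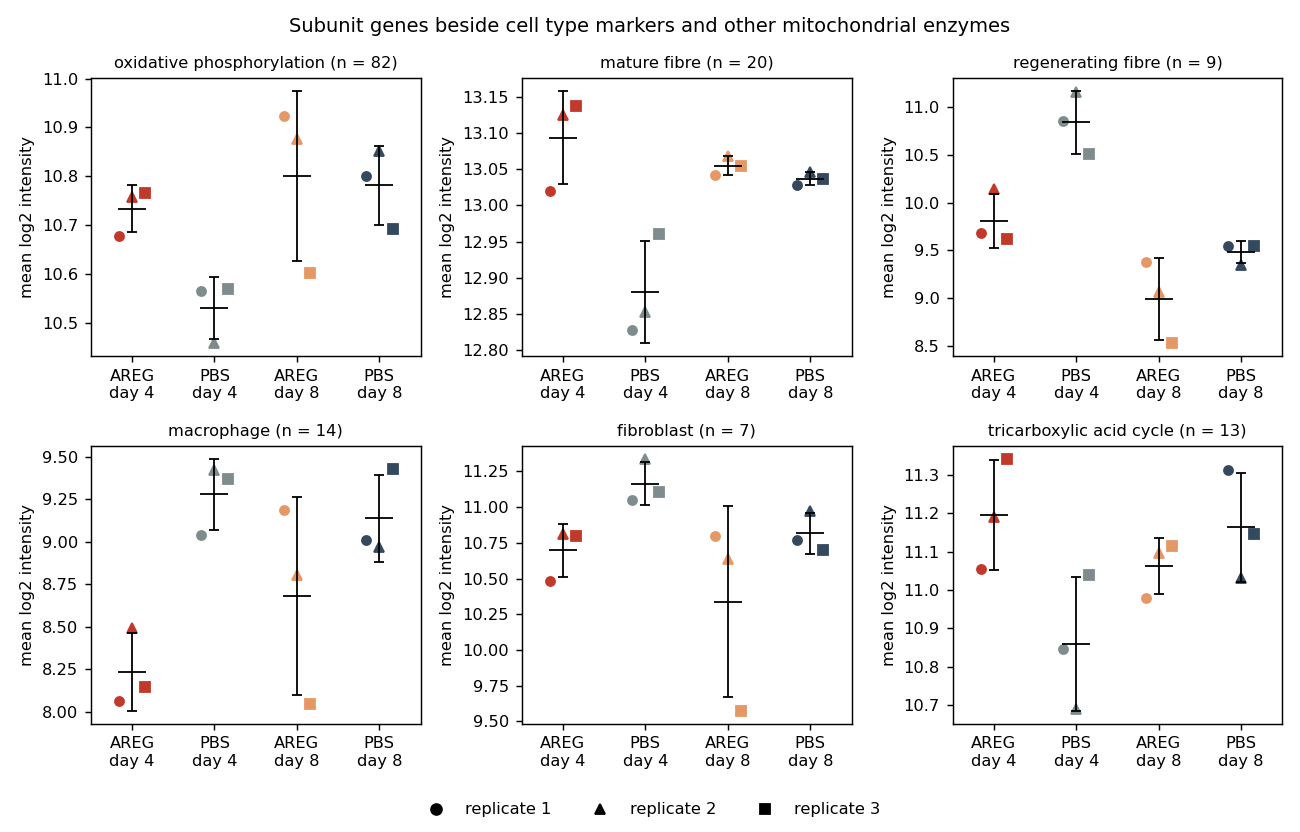
Mean log2 intensity on each array of the 82 subunit genes beside marker lists of cell types and fibre states and the tricarboxylic acid cycle enzymes, in the 4 groups; points are arrays, shaped by replicate number, and bars are the group mean ± SD over 3 arrays. At day 4 the subunit, mature fibre and cycle genes are higher and the regenerating fibre and macrophage genes lower in AREG than in PBS muscle.

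The subunit genes also differed in how steady they were within a group. The pooled within-group SD had a median of 0.17 on the log2 scale and lay between 0.07 and 0.54, and it was over 0.3 for 5 genes: Uqcr11, Ndufb2, Ndufa11, Ndufs5 and Cox6b1, named here after their values were seen. Uqcr11 had 10.11, 11.44 and 10.83 in AREG muscle of day 4, against 10.56, 10.98 and 10.46 in PBS muscle of that day. Ndufa11, a membrane-arm subunit of complex I, had 10.39, 10.94 and 10.71 in AREG muscle of day 4, against 10.52, 10.71 and 10.47 in PBS muscle, and at day 8 11.58, 11.29 and 10.71, against 10.23, 11.45 and 10.69. In 3 of the 4 groups, all but AREG at day 8, replicate 2 was the highest array for both. Ndufb2, with the largest positive difference at day 4, had an SD of 0.44, against 0.17 for the median gene.

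**Figure D5:**
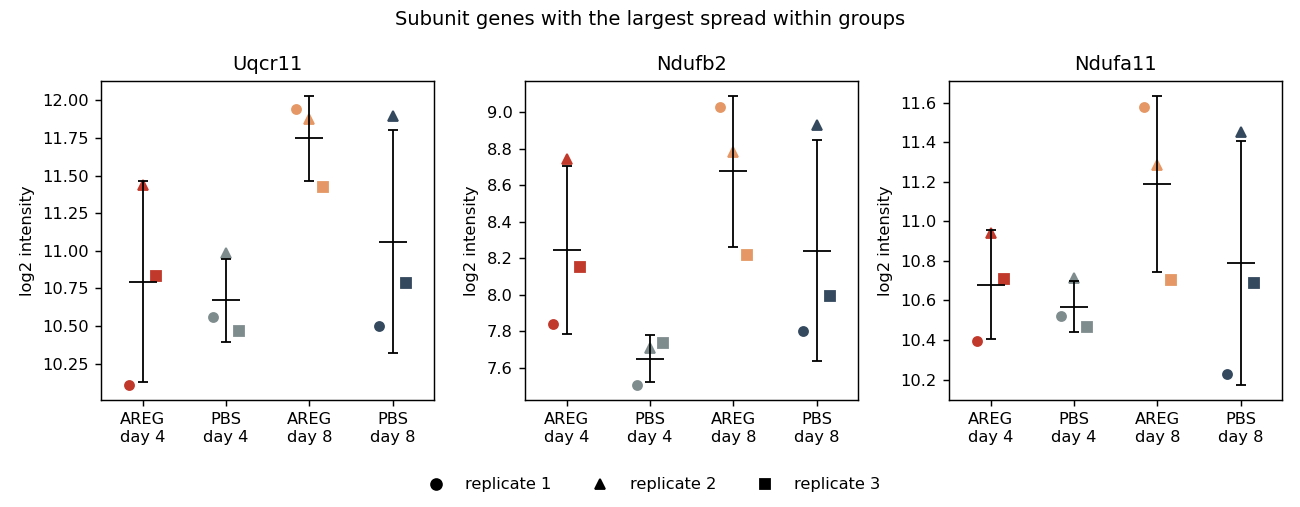
Log2 intensity of the 3 subunit genes with the largest spread within groups, on each array of the 4 groups; points are arrays, shaped by replicate number, and bars are the group mean ± SD over 3 arrays. Replicate 2 is highest for all 3 genes in the AREG group of day 4 and the PBS group of day 8, and the PBS arrays of Uqcr11 at day 8 run between 10.50 and 11.90.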

How the data were processed

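Whole-muscle RNA was measured on Affymetrix Mouse Gene 1.0 ST arrays. The deposited values are linear intensity values per transcript cluster, made by the authors with Affymetrix Power Tools and RMA, per the submitters' processing notes, which give no versions; RMA corrects background, normalises by quantiles and summarises probes, but the deposited arrays still differed in median (134 to 143) and log2 interquartile range (2.19 to 2.72). The values were taken to log2. Of 24922 clusters, 21425 had 1 gene symbol, which gave 19752 genes; clusters with several symbols (1399) or none (2098) were left out, among them those of Cox7c, Ndufb4 and Ndufs5 shared with other symbols. With 3 arrays a group, the number of arrays limits the precision.

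All genes were fitted with 4 group means in limma 3.58.1 (R 4.3.3, lmFit and eBayes), with Benjamini-Hochberg adjustment over all genes and a threshold of 0.05, and the fit was tested on simulated data. Isoform ratios were tested by exact permutation. The members and gene lists were chosen with earlier results of these data known. Genes named are the members called, the largest and smallest difference of each complex, isoform pairs, catalytic subunits and the called genes of each pathway list, up to 4; others are named as examples of a list or chosen after their values were seen. These include Uqcrc2, Sdhc, Slc25a4 and Pgam2.

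Same-numbered AREG and PBS arrays of day 4 deviated together from their group means (r = 0.56, 0.20 and 0.51), although AREG 2 and PBS 3 had r = 0.27. The reported fit had no block, and a fit blocked by the replicate number was run as an alternative. The labels do not say that this number pairs arrays. At day 8 the values were -0.20, 0.12 and -0.00. For AREG against PBS the block paired same-numbered arrays of the same day. For day 8 against day 4 it paired same-numbered arrays of the same treatment, although these came from mice of different genotype. Alternatives were the replicate block, only the arrays compared, trend and robust options, array weights, a filter at the median level, repeated quantile normalisation, median centring, averaging the clusters of each gene, a pseudocount of 32, and leaving out each array.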

Additional observations from a re-analysis of the deposited data

How the results depend on the processing

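At day 4, 0 members were called for AREG against PBS in the reported fit, against 2.9% of all genes. There were 2 with the replicate block (4.63% of all genes) and 3 with only the arrays compared (4.75%). Repeated quantile normalisation gave 2 (4.44%), array weights gave 50 (26.9%) and leaving out single arrays gave 0 to 3. At day 8 array weights gave 6 (6.03% of all genes) and no other alternative any. The mean effect had 1 call, and 4 with the block (5.59% of all genes). It had 2 with quantile normalisation (3.62% of all genes) and 43 with weights (24.8% of all genes). In limma Cox6a1 passed beside Cox8b with the trend and robust options (adjusted p = 0.0498) and with the filter (adjusted p = 0.0398). With single arrays left out the mean effect had 0 to 2 calls, where 34 to 1488 of all genes were called. The difference of effects had 14 with weights (11.3% of all genes). Between the PBS groups there were 2 calls (2.34% of all genes). There were 0 with the block, which here paired day 8 with day 4 arrays by number (2.11%). Fitting only the arrays compared gave 5 (3.84%) and weights gave 26 (8.35%). With the pseudocount of 32 the call of Ndufa1 was lost and that of Cox7a1 was kept (limma adjusted p = 0.0385). With single arrays left out there were 0 to 5, where 209 to 719 of all genes were called. Between the AREG groups weights gave 43 (33.8% of all genes) and single arrays left out 0 to 3, where 79 to 458 of all genes were called. The array weights ran from 0.167 to 7.43, so few arrays decided those counts, and the weighted counts are not used. Isoform ratios past the threshold numbered 3 with quantile normalisation and 0 to 6 with single arrays left out. With single arrays left out, the median difference ran from -0.056 to 0.12 at day 8, from -0.28 to -0.11 for the difference of effects and from 0.18 to 0.25 at day 4. The number of all genes called at day 4 ran from 9 to 1336. The day 8 split of 45 higher and 37 lower turned to 28 and 54 without AREG replicate 1 of day 8, 32 and 50 without AREG replicate 2 and 26 and 56 without PBS replicate 3. No called value changed sign. The block leaves mean differences as they are in this balanced design, and it changed no other call of a member than those given.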
